A study of Mus musculus with 16 samples.

Results

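The genes examined were 9 mouse genes that make, take up, break down or sense acetylcholine, out of 54838 genes in the count table: Chat, Slc5a7, Ache, Bche, Chrna7, Chrnb1, Chrnb2, Chrm2 and Chrm3. They were picked by symbol for their place in the cholinergic anti-inflammatory reflex of spleen, though with earlier results of these data known. RNA was sequenced from spleens of C57BL/6 mice in 16 samples. The 8 size-selected samples hold what a cell strainer retained after enzymatic digestion and red cell lysis, and their labelled source is spleen glia, supporting cells found along nerves. The 8 whole spleen samples carry the numbers of the size-selected ones, and each group has 4 samples labelled male and 4 labelled female. The labels name no treatment, age or genetic modification, and do not say what a number stands for, so p-values measure only the spread between these samples. The study asked which genes are enriched in spleen glia over whole spleen.

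In the cholinergic reflex, vagal activity reaches the spleen through the noradrenergic splenic nerve, and noradrenaline acts on T cells that contain choline acetyltransferase. The acetylcholine they release acts on the alpha-7 nicotinic receptor of macrophages, which then release less tumour necrosis factor. Acetylcholine is cleared by cholinesterases, of which acetylcholinesterase is the more selective enzyme and butyrylcholinesterase accepts a wider range of esters. Nicotinic receptors are ion channels built from several subunits, whereas muscarinic receptors act through G proteins.

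RefSeq start-site windows on GRCm38.p6 were found for 9 of 9 genes. The 250 bases before the start are printed for both cholinesterase genes and for Chrm2, the genes that the results on breakdown and on muscarinic receptors turn on. Capitals mark GC boxes (GGGCGG, searched on both strands, copies may overlap), and each sequence runs 5′ to 3′ on the strand of its gene.
Ache, chr5:137288004-137288253, plus strand: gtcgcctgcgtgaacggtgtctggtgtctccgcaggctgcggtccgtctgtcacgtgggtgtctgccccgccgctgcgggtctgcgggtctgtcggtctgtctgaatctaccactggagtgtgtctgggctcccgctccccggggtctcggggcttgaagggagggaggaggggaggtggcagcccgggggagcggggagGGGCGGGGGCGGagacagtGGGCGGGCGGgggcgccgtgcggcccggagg
Bche, chr3:73708416-73708665, minus strand: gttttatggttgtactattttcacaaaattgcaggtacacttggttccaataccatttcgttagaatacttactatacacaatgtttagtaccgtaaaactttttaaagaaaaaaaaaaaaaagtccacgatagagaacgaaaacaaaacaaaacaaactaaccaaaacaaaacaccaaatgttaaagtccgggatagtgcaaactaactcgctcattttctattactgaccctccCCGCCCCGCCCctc
Chrm2, chr6:36387834-36388083, plus strand: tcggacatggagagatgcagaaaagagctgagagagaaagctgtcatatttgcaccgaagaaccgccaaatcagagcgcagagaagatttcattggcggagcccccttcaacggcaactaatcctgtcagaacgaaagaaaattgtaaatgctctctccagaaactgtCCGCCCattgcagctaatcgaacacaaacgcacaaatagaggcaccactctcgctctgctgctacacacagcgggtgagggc
The Ache window precedes the RefSeq start and lies inside the gene as GENCODE M21 draws it, which begins upstream at 137287519. It was 73.6% G or C and held 4 GC boxes. The Bche window was 35.6% G or C and held 2, at its 3′ end, and the Chrm2 window was 50% G or C and held 1. A GC box was present in 32.7% of 32851 such windows, whose median content was 52.4% G or C. The E-box letters CANNTG, present in 66.2% of the windows, occurred 1 time for Ache, 2 times for Bche and not for Chrm2. No TATAAA was found in any of the 3 windows, against 12.4% of all windows with it. These matches describe letters only.

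Totals ran from 13119992 to 19944440 estimated counts in the size-selected samples and from 12153770 to 16282454 in whole spleen. Markers of peripheral glia summed to 77.7 to 568 CPM (a count relative to its library's total, scaled by the trimmed mean of M-values, TMM) in the size-selected samples against 2.44 to 11 in whole spleen, and 8 of 8 tested glial markers were called higher. Smooth muscle markers went from 8.69 to 73.4 CPM in whole spleen up to 818 to 3836 CPM in the size-selected samples, so RNA of other stromal cells was higher beside glial RNA. T cell markers summed to 157 to 486 CPM in the size-selected samples and 594 to 914 CPM in whole spleen, with 6 of 7 called lower. Megakaryocyte markers summed to 95.1 to 651 CPM against 55 to 196 CPM, with 7 of 7 called higher. Genes induced by tissue dissociation summed to 3411 to 6645 CPM against 1505 to 2306 CPM, with 5 of 7 called higher and 1 lower. The part of each of these in the results below was not tested, and in such bulk RNA fewer cells of a type and less RNA per cell cannot be told apart.

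RNA of both cholinesterases, Ache and Bche, and of the receptor genes Chrna7 and Chrm2 was higher in the size-selected fraction, and so was that of Chrm3 in a call that single numbers could end. RNA of the synthetic enzyme, Chat, came to 1 count in 16 samples. With the count filter of edgeR's quasi-likelihood test, 3 of the 9 genes had enough counts to be tested. Calls were made for 67.9% of 14510 genes tested. Among the 3, Ache was called higher, beside 37.5% of all, and Chrnb2 was called lower, beside 30.4%. Chrnb1 was not called. In the same test without the count filter, where 28235 genes had any count, 6 of the 9 genes were called higher, beside 25.3% of all genes, and 1 was called lower, beside 18.2%. The 6 were Slc5a7, Ache, Bche, Chrna7, Chrm2 and Chrm3. The lowest size-selected value lay above the highest whole spleen value for Ache, Chrna7 and Chrm2, as for 13.6% of the 28235 genes.

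**Figure D1:**
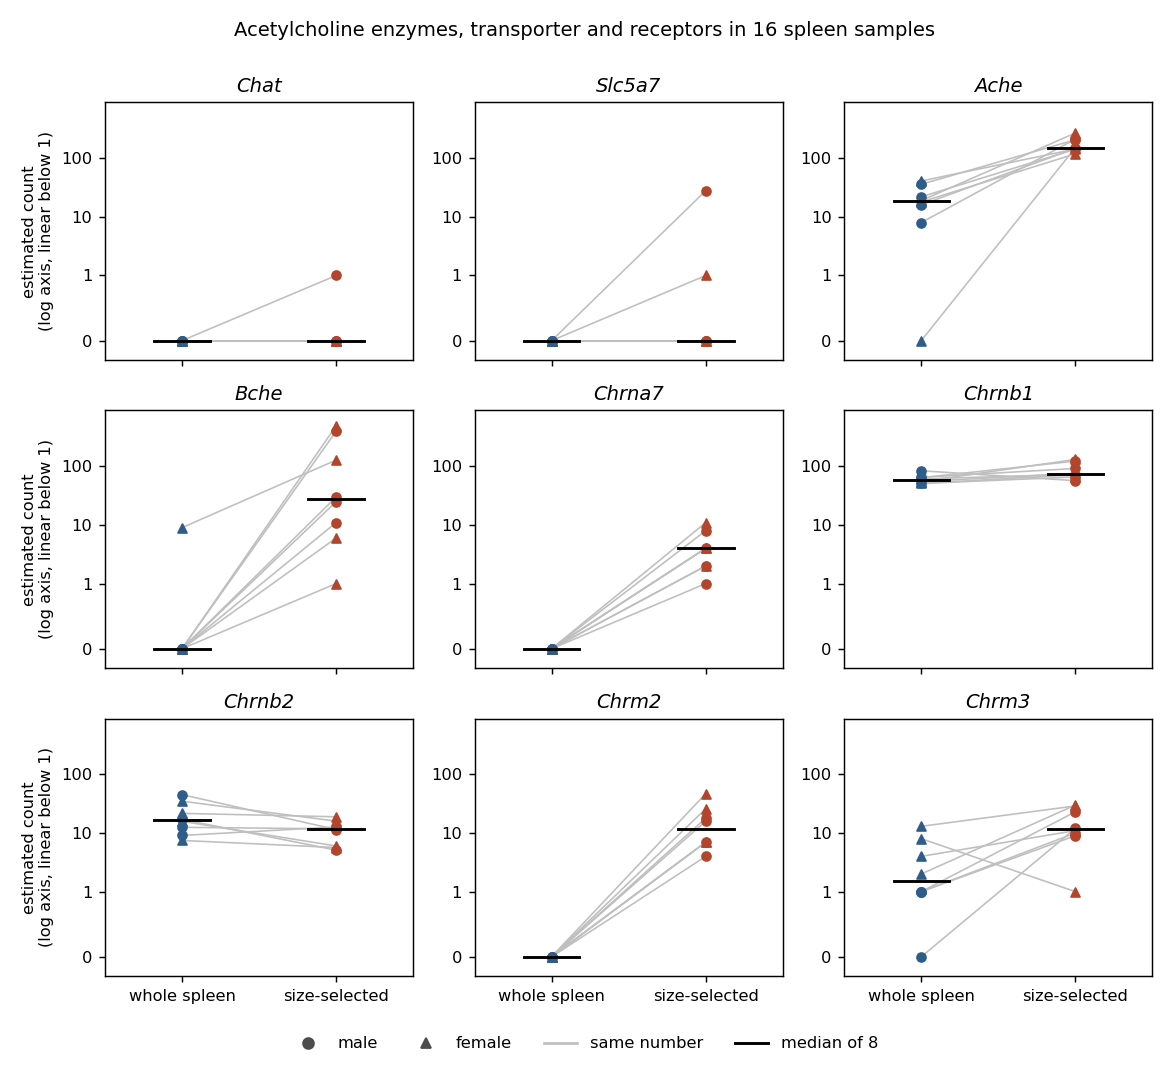
Estimated counts of the 9 genes in each of the 8 size-selected and 8 whole spleen samples, 1 point per sample (circles male, triangles female) on a log axis that is linear below 1, with grey lines joining samples of the same number and black bars at the medians of 8. Ache, Chrna7 and Chrm2 show no overlap between the fractions, and Chat has 1 count in a single size-selected sample.

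Chat encodes choline acetyltransferase, the enzyme that makes acetylcholine. It had a count of 1 in the size-selected sample of number 408 and 0 in the other 15 samples, including all 8 whole spleen samples. Over the 8 whole spleen samples a count of 0 allows up to 0.0268 CPM (3 counts over the group, counting error only). T cell markers were present in every one of those samples, and Chat RNA was not detectable in them at this depth.

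Slc5a7 encodes the high-affinity choline transporter that brings choline back into cholinergic nerve endings. Its count was 28 in the size-selected sample of number 408, 1 in that of number 436 and 0 in the other 14 samples. A single library thus held nearly all of its signal. The call of edgeR without the count filter (log2 fold change 4.90, SE 1.73, adjusted p = 0.0315) ended without number 408 (1.01, adjusted p = 0.355), and also with the number as a block (3.54, adjusted p = 0.103) and in limma-voom (0.73, adjusted p = 0.362). DESeq2 without the count filter gave 0.16 (SE 3.06) and no adjusted p. The exact two-sided permutation test gave p = 0.467.

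The size-selected sample of number 408 held counts of other neuronal genes too. Slc18a3, the vesicular acetylcholine transporter, which lies inside the Chat gene on the same strand with exons apart from those of Chat, had 5 counts there and 0 in the other 15 samples. Chrna3, the alpha-3 nicotinic subunit of autonomic ganglia, had 33 counts there and 0 elsewhere. Snap25, a presynaptic fusion protein, had 19 counts there and 0 elsewhere. Chrna5 had 3 counts there and 1 in the size-selected sample of number 436. Th, the first enzyme of noradrenaline synthesis, was at 0 in all 16 samples, and Dbh, a later enzyme of the same route, was at 0 in this one and at most 4.07 counts in any other. Slc18a3, Chrna3 and Snap25 thus appeared in 1 library of 16. Stmn2 and Prph did not single out this library. Stmn2, a growth-associated protein of axons, ran from 167 to 715 counts after size selection with number 408 the lowest, and Prph, a neurofilament of peripheral nerve, ran from 46 to 99 with 57 in number 408. The sympathetic neuron list, which holds Snap25, Stmn2 and Prph, summed to 21.7 CPM in number 408, the lowest of a range up to 65.4 CPM.

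**Figure D2:**
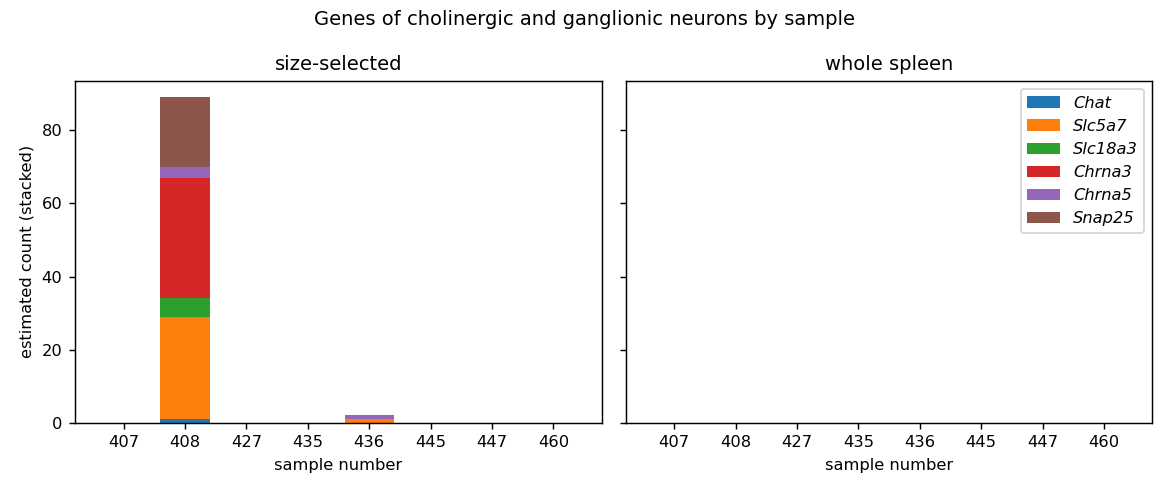
Estimated counts of 6 cholinergic and other neuronal genes, stacked in 1 bar per sample, by number in the size-selected and whole spleen samples. The size-selected sample of number 408 stands alone for Slc5a7 (28 counts), Chrna3 (33 counts), Snap25 (19 counts) and Slc18a3 (5 counts).

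Ache encodes acetylcholinesterase, the enzyme that hydrolyses acetylcholine at synapses and on blood cells. Its estimated count in the size-selected samples was 119 at the lowest, 150 at the median and 270 at the highest, and in whole spleen 0 at the lowest, 18.5 at the median and 41 at the highest. No whole spleen sample reached the lowest size-selected sample. Mean levels were 10.9 ± 3.11 CPM (SD, n = 8) against 1.45 ± 0.973 CPM (SD, n = 8), a ratio of means of 7.53, and Ache was higher in 8 of 8 pairs of the same number. The edgeR log2 fold change was 2.91 (SE 0.43, adjusted p = 7.88e-06), and it was 3.09 with the number as a block and 3.52 in limma-voom. Leaving out each number in turn gave 2.74 to 3.13, and the exact permutation p was 0.000155, the smallest that 8 against 8 samples allow. Paired by number, exact sign flips of the 8 differences gave p = 0.00781, the smallest that 8 pairs allow. The sample at 0 was whole spleen of number 460. The Ache gene (ENSMUSG00000023328, GRCm38 chromosome 5, 137287519 to 137294466, plus strand) overlaps an exon of the long non-coding RNA gene Gm42456 on the opposite strand, which had 0 counts in all 16 samples.

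Ache varied among the size-selected samples with a coefficient of variation of 28.5%, near the median of 24.8% for 2216 genes within 1.5-fold of its mean. Among 12128 genes, deviations of log2 CPM from the group means over the 16 samples were most like those of Ache for Gstm2 (r = 0.92) and Nckap1 (r = 0.88). These were picked as the closest of all genes, so the size of r is set in part by the choice. Across the 8 size-selected samples, the highest Pearson r of Ache was with the dissociation score, 0.78 (exact permutation p = 0.0181, adjusted p = 0.487), with Spearman rho = 0.55 (exact permutation p = 0.171, adjusted p = 0.852). With the megakaryocyte score it was 0.74 (exact permutation p = 0.0375, adjusted p = 0.487), with Spearman rho = 0.76 (exact permutation p = 0.0368, adjusted p = 0.478). Without the 2 samples farthest from the median score, r was 0.48 and 0.46, so both relations rested on those samples, and neither passed adjustment. Of 39 such relations for Ache, Chrnb1 and Chrnb2 in each fraction, 3 had an unadjusted Pearson p under 0.05 in each, and 0 did after adjustment. By Spearman rho, Ache and the endothelial score in whole spleen passed adjustment (rho = 0.98, exact permutation p = 0.000397, adjusted p = 0.0155). Their Pearson r was 0.72 (exact permutation p = 0.0888, adjusted p = 0.403), or 0.82 without the 2 farthest samples.

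Bche encodes butyrylcholinesterase, which in nerve is known from glial cells. Its counts in the 8 size-selected samples were 1 in number 445, 6 in 447, 11 in 427, 25 in 408, 30 in 435, 128 in 436, 399 in 407 and 492 in 460. In whole spleen the count was 9 in number 436 and 0 in the other 7 samples. Numbers 407, 436 and 460 stood far above the other 5 size-selected samples, and the lowest lay below the single whole spleen sample with counts. Mean levels were 7.69 ± 10.9 CPM (SD, n = 8) and 0.0809 ± 0.229 CPM (SD, n = 8), with 8 of 8 pairs higher. The log2 fold change of edgeR without the count filter was 6.39 (SE 1.16, adjusted p = 7.89e-05), and the exact permutation p was 0.000466. The ratio of means, 95.1, rested on whole spleen of number 436. Without that number Bche was at least 284-fold higher, against a floor of 3 counts over the whole spleen group. Numbers 407 and 460 held 399 and 492 of the 964 size-selected counts behind this bound, so it rested on those 2 samples. Leaving out numbers in turn moved the log2 fold change from 5.63 without 407 to 9.85 without 436.

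The coefficient of variation of Bche in the size-selected samples was 142%, against a median of 27.8% for 1946 genes within 1.5-fold of its mean. Counts ran from 1 to 492 in females and from 11 to 399 in males, so both sexes covered most of the range. No relation to the glial score was detected across the 8 size-selected samples (r = -0.01, exact permutation p = 0.984, rho = -0.02, exact permutation p = 0.977; r = -0.28 without the 2 farthest samples). Whole spleen of number 436, the 1 whole spleen sample with Bche, also held counts of pancreatic genes, among them 54 for Cela2a and 48 for Prss2. In the size-selected samples with most Bche, Cela2a had 0 counts in number 460, 1 in number 407 and 19 in number 436. Without Cela1, which was abundant in every sample, the other 6 pancreatic markers summed to 12.4 CPM in whole spleen of number 436, 3.48 CPM in the size-selected sample of that number and at most 0.979 CPM in the rest, and their part in the Bche count of that sample was not tested. The Bche gene (ENSMUSG00000027792) lies on chromosome 3 at 73635808 to 73708415 of GRCm38, minus strand, with no overlapping gene in the annotation used.

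**Figure D3:**
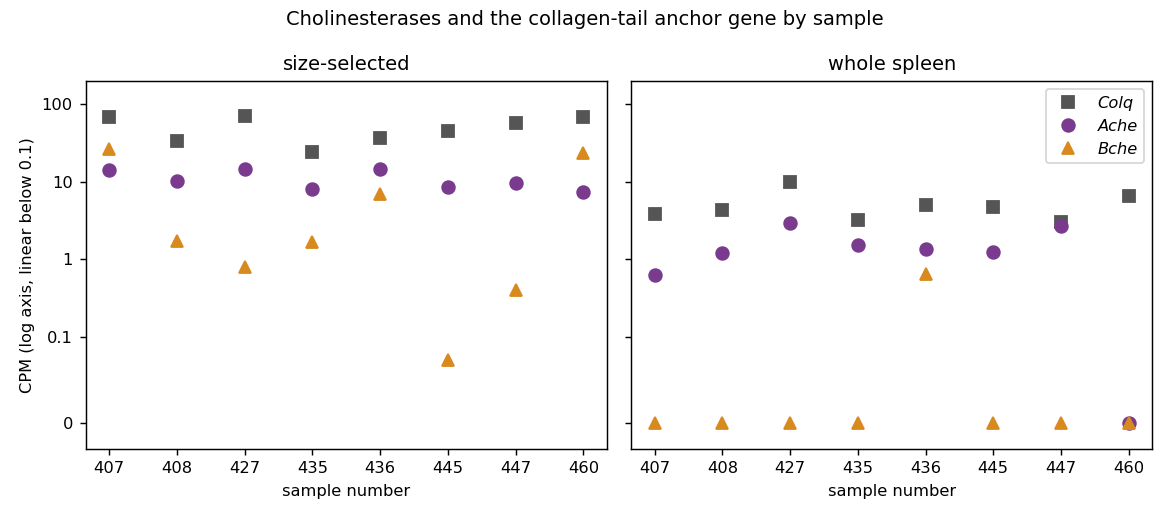
CPM of Ache, Bche and the anchor gene Colq by number, 1 point per gene and sample, in the size-selected and whole spleen samples, on a log axis that is linear below 0.1 CPM. Ache lies in a narrow band in the size-selected samples, while Bche runs from 0.0731 CPM in number 445 to 26.3 CPM in number 407.

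Chrna7 encodes the alpha-7 nicotinic subunit, the receptor named in the reflex. Its count was 1 at the lowest, 4 at the median and 11 at the highest in the size-selected samples, and 0 in all 8 whole spleen samples. All size-selected samples thus had at least 1 count and no whole spleen sample had any, a pattern shown by 0.754% of the 28235 genes. Chrna7 was at least 10.4-fold higher in the size-selected group (floor of 3 counts over the group), or at least 7.35-fold without number 436. The test of edgeR without the count filter gave adjusted p = 2.14e-04, or 0.00721 with the number as a block, and the exact permutation p was 0.000155. Macrophage markers summed to 1697 to 2675 CPM in whole spleen and 2225 to 5143 CPM in the size-selected samples, so macrophage RNA was present in the libraries where Chrna7 was at 0.

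Chrnb1 encodes the beta-1 subunit of the muscle-type nicotinic receptor. Its count was 57 at the lowest, 74.5 at the median and 131 at the highest in the size-selected samples, and 51, 58 and 84 in whole spleen. The groups overlapped, at 5.34 ± 1.34 CPM (SD, n = 8) and 4.41 ± 1.13 CPM (SD, n = 8), and 6 of 8 pairs were higher. The edgeR log2 fold change was 0.28 (SE 0.20, adjusted p = 0.222), and the exact permutation p was 0.16. Its nearest genes by deviation over the 16 samples were Cyp51 (r = 0.83) and Atp2a3 (r = 0.81).

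Chrnb2 encodes the beta-2 subunit of neuronal nicotinic receptors. Its estimated count was 5.11 at the lowest, 11.6 at the median and 18.9 at the highest in the size-selected samples, and 7.47, 16.4 and 45.2 in whole spleen. The groups overlapped, and the size-selected sample was higher in 1 of 8 pairs. Mean levels were 0.657 ± 0.223 CPM (SD, n = 8) and 1.49 ± 1 CPM (SD, n = 8), and edgeR put Chrnb2 at -1.16 on the log2 scale (SE 0.38, adjusted p = 0.0121). The call was lost in limma-voom (-0.91, adjusted p = 0.054). An exon of Chrnb2 overlaps one of Adar on the opposite strand, and its estimated counts were not whole numbers in 8 of 8 samples of either group. Adar ran from 653.9 to 1700 counts after size selection and from 967.4 to 1461 in whole spleen, so reads of the pair cannot be told apart without a stated strand setting and the level of Chrnb2 is uncertain. The nearest genes to Chrnb2 by deviation were Zkscan5 (r = 0.78) and Rab43 (r = 0.75).

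Chrm2 encodes the M2 muscarinic receptor, which acts through inhibitory G proteins. Its count was 4 at the lowest, 11.5 at the median and 47 at the highest in the size-selected samples, and 0 in all 8 whole spleen samples. Number 436 was the highest, and every size-selected sample lay above every whole spleen sample. Chrm2 was at least 38-fold higher (floor of 3 counts over the group), or at least 25-fold without number 436. The test of edgeR without the count filter gave adjusted p = 1.36e-05, and the exact permutation p was 0.000155. The gene (ENSMUSG00000045613, chromosome 6, 36388084 to 36528414, plus strand) shares exon sequence with the non-coding gene 9330158H04Rik on the opposite strand, which had at most 6 counts in a size-selected sample and 0 in whole spleen.

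Across the 8 size-selected samples, Chrm2 had Pearson r = 0.82 with the glial score (exact permutation p = 0.012, adjusted p = 0.625) and Spearman rho = 0.81 (exact permutation p = 0.0218, adjusted p = 0.954). With the fibroblast score it had r = 0.77 (exact permutation p = 0.0263, adjusted p = 0.685) and rho = 0.71 (exact permutation p = 0.0576, adjusted p = 0.954). Without the 2 samples farthest from the median score, r was 0.36 and 0.24, so both relations rested on those samples. These were the 2 with an unadjusted Pearson p under 0.05 among 52 relations computed for Bche, Chrna7, Chrm2 and Chrm3 after seeing the data, and 0 passed adjustment.

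Chrm3 encodes the M3 muscarinic receptor of smooth muscle and glands, which couples to Gq. Its count was 1 at the lowest, 11.5 at the median and 30 at the highest in the size-selected samples, and 0, 1.5 and 13 in whole spleen. The groups overlapped, and 7 of 8 pairs were higher in the size-selected sample. Number 445 was the exception, with 1 count in the size-selected sample and 8 in whole spleen. Mean levels were 0.965 ± 0.65 CPM (SD, n = 8) and 0.253 ± 0.296 CPM (SD, n = 8), a ratio of 3.81. The log2 fold change of edgeR without the count filter was 1.81 (SE 0.64, adjusted p = 0.0247), and the call was lost without number 407 (1.56, adjusted p = 0.0764) or without number 436 (1.56, adjusted p = 0.0799). The exact permutation p was 0.0134, and exact sign flips within pairs of the same number gave p = 0.0312.

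Levels between genes were compared per length of annotated exons. Per kb, Ache led in the size-selected group with 2.36 ± 0.673 CPM per kb (SD, n = 8), then Chrnb1 with 2.11 ± 0.53, and Bche with 1.14 ± 1.62 CPM per kb. Chrm2 (0.159 CPM per kb), Chrm3 (0.154), Chrnb2 (0.0784), Chrna7 (0.06), Slc5a7 (0.0441) and Chat (0.00184) followed, and the ranges of every pair of neighbours in this order overlapped. In whole spleen the order changed. Chrnb1 led with 1.74 ± 0.445 CPM per kb (SD, n = 8), its range apart from that of Ache at 0.314 ± 0.21, and Chrnb2 (0.178), Chrm3 (0.0404) and Bche (0.012) followed, while the other 4 genes were at 0. Ache and Chrnb1 were thus at overlapping levels in the size-selected samples and apart in whole spleen.

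In females against males, no gene of the 9 was called in either fraction. With the count filter of edgeR the count was 0 of 3 in whole spleen (0 with an unadjusted p under 0.05), beside 0.194% of all genes called, and 0 of 6 in the size-selected samples (0 unadjusted), beside 0.0397%. For the interaction of sex and fraction it was 0 of 6 (1 unadjusted, Chrm3), beside 0% of 15760 genes. DESeq2 and limma-voom also called 0 in each. Without the count filter none was called either. Unadjusted edgeR p-values there were under 0.05 for Bche in whole spleen (0.0335, adjusted p = 0.349) and Slc5a7 in the size-selected samples (0.0234, adjusted p = 0.836). The closest was Chrm3 in whole spleen, with 2 to 13 counts in the 4 females and 0 to 1 in the 4 males. Without the count filter its female over male log2 fold change was 2.82 (SE 1.16, adjusted p = 0.288), and its interaction log2 value with the filter was -2.59 (SE 1.22, edgeR unadjusted p = 0.0484, adjusted p = 1). In whole spleen without the count filter 1.13% of genes were called between the sexes, and Chrm3 was not among them. The share of all genes whose female and male counts lie apart is not given here.

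Around the 9 genes, 57 others of the pathway were examined in 7 lists, of which 52 had any count and 27 passed the count filter. Of the 27, 16 were called higher, 4 lower and 7 were not called, with a median log2 fold change of 1.19 beside 0.05 for all genes tested. Over all genes tested 37.5% were called higher and 30.4% lower, and the counts of single lists below stand beside those shares. A gene can pass the filter through a single fraction, and then its passing and its call are linked. Dok7, with at most 1 count in a whole spleen sample, passed in this way.

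**Figure D4:**
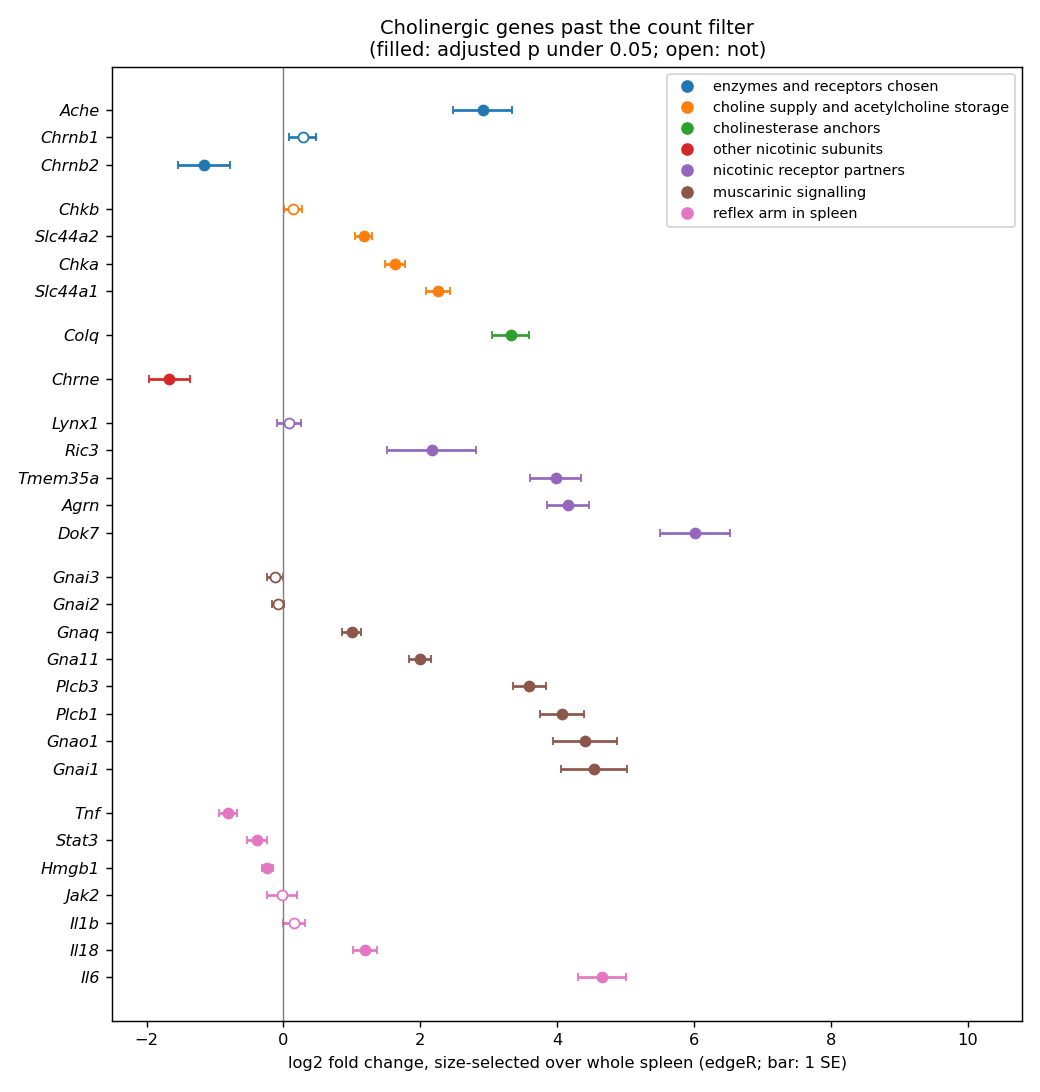
edgeR log2 fold changes, size-selected over whole spleen, with bars of 1 SE, for the cholinergic genes past the count filter that are reported here, coloured by list and filled where the adjusted p was under 0.05. Ache and its collagen anchor Colq lie at 2.91 and 3.32, and Dok7 is the farthest right at 6.02.

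In the list on choline supply and storage, 3 of 4 genes past the filter were called higher. The transporters Slc44a1 and Slc44a2 had log2 fold changes of 2.26 and 1.17, and choline kinase Chka, which turns choline towards phospholipid, had 1.63. Its relative Chkb had 0.14 (adjusted p = 0.367). Slc44a1 and Slc44a2 are broadly expressed choline transporters, whereas Slc5a7 serves cholinergic nerve endings.

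Of the 2 proteins that anchor acetylcholinesterase, Colq, the collagen tail that ties the enzyme to basement membrane, had 437 counts at the lowest, 776 at the median and 1427 at the highest in the size-selected samples. In whole spleen it had 46, 63 and 122. The groups did not overlap, and levels were 50.5 ± 18 CPM (SD, n = 8) against 5.08 ± 2.25 CPM (SD, n = 8), with 3.32 on the log2 scale in edgeR (SE 0.27, adjusted p = 5.62e-09). Prima1, the membrane anchor of neurons, had at most 4 counts in a size-selected sample and 0 in whole spleen.

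Among 13 other nicotinic subunits, Chrne alone passed the filter. This epsilon subunit of the muscle-type receptor ran from 2.48 to 11.4 counts after size selection and from 10 to 25 in whole spleen, with an edgeR log2 fold change of -1.67 (adjusted p = 6.54e-05). Its deposited size-selected counts carry a multiplying constant below 1. With that divided out the groups stayed apart, at 0.193 to 0.767 CPM against 0.808 to 1.62 CPM. Without the filter 3 were called higher and 2 lower, and with the number as a block 2 and 1. Without the filter 25.3% of all genes were called higher and 18.2% lower, so these counts lay near the background. Chrna6 had 2 counts at the lowest, 17.5 at the median and 42 at the highest in the size-selected samples and 0 in all whole spleen samples, at least 37.8-fold higher. Chrnb4 had 3, 23.5 and 39 counts against 0, 0 and 2, with no overlap (log2 fold change 5.30, adjusted p = 2.96e-06), and its log2 fold change was 6.34 without number 427, which held 2 of its 3 counts in whole spleen. The third called higher, Chrna3, was the gene with counts in number 408 alone, and its call was lost with the block (3.57, adjusted p = 0.104). Chrng, the fetal gamma subunit of muscle receptors, was at 0 after size selection and had up to 3 counts in whole spleen (-2.68, adjusted p = 0.0366), and its call was also lost with the block (-2.40, adjusted p = 0.254). Chrna10, Chrnb3 and Chrnd were at 0 in all 16 samples. The alpha-6 and beta-4 subunits belong to neuronal-type receptors and were detected in 8 of 8 size-selected samples, unlike Chrna3.

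Of the other muscarinic receptors, Chrm1 had at most 6 counts in a size-selected sample and 0 in whole spleen, higher in 7 of 8 pairs. Chrm4 had 3 to 7 counts against 0 to 4 (log2 fold change 1.28, adjusted p = 0.0932, edgeR without the filter) and was called in limma-voom (1.44, adjusted p = 0.0187), and Chrm5 was at 0 throughout. Among the signalling genes, 6 of 8 past the filter were called higher. Those of the M2 route were Gnai1 (4.54) and Gnao1 (4.41, or 5.07 without whole spleen of number 427), and those of the M3 route were Plcb1 (4.07), Plcb3 (3.59), Gna11 (1.99) and Gnaq (1.00), all as edgeR log2 fold changes. Gnai2 had -0.08 (adjusted p = 0.415) and Gnai3 had -0.12 (adjusted p = 0.364), the latter 0.27 on restored counts (adjusted p = 0.0452).

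Partners of the nicotinic receptor were called higher in 4 of 5 genes past the filter. Agrn and Dok7, which cluster receptors at the neuromuscular junction, had log2 fold changes of 4.16 and 6.02. The receptor chaperones Tmem35a and Ric3 had 3.98 and 2.17, and the inhibitor Lynx1 had 0.08 (adjusted p = 0.674). Lypd1, a relative of Lynx1, was at 0 in all whole spleen samples and at least 24.8-fold higher.

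In the spleen arm of the reflex, 8 of 8 genes passed the filter, with 2 called higher and 3 lower, beside 37.5% and 30.4% of all genes. Tnf, the cytokine the reflex restrains, had 238 counts at the lowest, 387 at the median and 535 at the highest in the size-selected samples, and 372, 560 and 736 in whole spleen. Levels were 23.5 ± 4.5 CPM against 41.1 ± 6.29 CPM (SD, n = 8 each), and the edgeR log2 fold change was -0.81 (SE 0.13, adjusted p = 2.19e-05). Tnf is among the genes whose deposited size-selected counts carry a multiplying constant below 1. On restored counts, with the constant divided out, the log2 fold change was -0.38 (adjusted p = 0.0125), and the groups, apart on deposited counts, overlapped at 21.3 to 36.1 CPM and 30 to 47.6 CPM. Il6 had a log2 fold change of 4.65 and Il18 of 1.19. Stat3 (-0.39) and Hmgb1 (-0.24) were called lower, but neither with library totals as scale (-0.27 and -0.11) nor on restored counts (-0.12 and -0.15). Il1b had 0.16 (adjusted p = 0.409) and Jak2 -0.02 (adjusted p = 0.941).

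The authors' deposited table of genes enriched in the size-selected fraction lists 3 of the 9 genes, Bche, Chrm2 and Chrna7, among 2201 genes in all, or 4.01% of the genes of the count table. The authors' deposited table gives Bche a log2 fold change of 6.22 and mean TPM of 1.56 and 0.0125 in the size-selected and whole spleen groups. It gives Chrm2 5.62 (the authors' deposited table, mean TPM 0.255 and 0) and Chrna7 4.60 (mean TPM 0.166 and 0). Every log2 fold change in the authors' deposited table was at least 3.50.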

How the data were processed

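RNA from mouse spleen was measured in 8 size-selected and 8 whole spleen samples. Per the submitters' processing notes, Trim Galore, STAR, RSEM, DESeq and build mm10 were used, with no versions or settings given. The deposited estimated counts per gene were rounded to whole numbers. In the size-selected columns 3898 genes carried 1 to 3 multiplying constants, which no label or file header mentions. None of the 9 genes did, but 11 other cholinergic genes did. They were Slc44a2, Slc44a4, Slc44a5, Chrne, Lynx1, Rapsn, Gnai2, Gnai3, Stat3, Tnf and Hmgb1. Counts divided by the constants (restored counts) were an alternative. Restored totals were 1.08 to 1.15 times the deposited ones. In the authors' deposited table, per the file headers, there are a mean signal, a log2 fold change, a test score, p-values, and mean TPM and FPKM values per group, of which TPM and log2 values are quoted.

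Genes passed filterByExpr (minimum count 10) in edgeR 4.0.16 under R 4.3.3, with TMM scaling, and entered the quasi-likelihood F test with Benjamini-Hochberg adjustment over all genes tested. Calls have an adjusted p under 0.05. For genes short of the filter, the same test was run on all 28235 genes with a count, and log2 CPM values went through an exact permutation test, two-sided, over 12870 splits. Those p-values are unadjusted, and the splits leave out the pairing by number. Exact sign flips within the 8 pairs (256 patterns) gave p = 0.00781 for Ache, Bche, Chrna7 and Chrm2. The same flips gave 0.0312 for Chrm3, 0.0234 for Chrnb2, 0.164 for Chrnb1 and 0.5 for Slc5a7. SE is the log2 fold change over the square root of F. A marker score is the mean log2 CPM over a list. Deviations from the group means correlated at r = 0.12 to 0.38 between samples of the same number (mean 0.21, other numbers -0.03), so the numbers pair the samples. The fits were checked on simulated counts. Coordinates and exon lengths are GENCODE M21, and windows are RefSeq GRCm38.p6.

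Alternatives were RLE scaling, library totals, limma-voom (limma 3.58.1), DESeq2 1.42.0, a block for the number, sex as a covariate, restored counts, other count filters, and leaving out numbers. The 9 genes, the 7 pathway lists and the 16 marker lists were chosen with earlier results of these data known. All genes of these lists past the filter were named except 1 that is not reported here, others by level, and genes found in 1 library were chosen after their values were seen. Depth limits precision: intervals and floors cover counting error only.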

Additional observations from a re-analysis of the deposited data

Results flagged for a closer look

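In 4 of 14 groups of 8 samples, 1 sample stood apart from the rest of its group by Dixon's ratio of the gap to the whole range, where chance gives about 1 in 20 groups of normally distributed values. The ratios were computed on log2 CPM. Groups that are mostly at 0 are not of that kind, and a single sample with a count among 7 at 0 has a ratio of 1 whatever its count, so the number of such groups says nothing in itself. Chat in the size-selected sample of number 408 had a ratio of 1, from a single count. Slc5a7 in the same sample had a ratio of 0.875, from its 28 counts. Ache in whole spleen of number 460 had a ratio of 0.553, at 0 counts, below the other 7 samples. Bche in whole spleen of number 436 had a ratio of 1, at 9 counts beside 0 in the other 7.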

How the results depend on the processing

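Of the genes tested with the count filter, 1 of the 9 was called higher and 1 lower. A minimum count of 3 gave 4 higher, no count filter gave 6, and limma-voom gave 0 lower. Other cholinergic genes called numbered 20, and 32 with no count filter. Gnai3, whose deposited size-selected counts carry multiplying constants below 1, turned to 0.27 once these were divided out. With the replicate block Ache stayed called (3.09, adjusted p = 2.58e-05), as did Chrnb2 (-1.01, adjusted p = 0.019). Among the other genes named with a fold change, the block ended the calls of Slc5a7, Chrna3 and Chrng only. Chrng was also lost with sex as a covariate (-2.63), without whole spleen of number 427 (-2.52) and without number 427, 436 or 460 (-2.56 to -1.82). Leaving out each number in turn, or whole spleen of number 427 alone (the highest of these), gave 9249 to 10082 genes called, 1 to 1 of the 9 higher and 1 to 1 lower, 18 to 21 other cholinergic genes called, and 0 of the 9 for sex or its interaction with fraction. Stat3 was also lost without number 427, 436, 445 or 447 (-0.40 to -0.29). Limma-voom ended the calls of Slc5a7 (0.73) and Chrna3 (0.59), besides Chrnb2. Of the other called genes compared one by one across settings, it moved the log2 fold change by over 1.5-fold for Ache (3.52), Bche (5.47), Chrnb4 (4.42), Dok7 (5.28), Gnai1 (5.14), Ric3 (2.84) and Chrng (-0.99), and for Chrm2, Chrna7, Chrna6, Chrm1 and Lypd1, which were at 0 in whole spleen and whose fitted values depend on the prior count. Library totals moved the median log2 fold change of all genes from 0.05 to 0.18. At this depth Chat, Chrna7 and whole spleen Chrm3 rest on at most 13 counts per library.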

Other observations

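Genes with at least 10 counts in 1 library and 0 in the other 15 were listed after the counts of Slc5a7 had been seen. The size-selected sample of number 408 had 5 of them, against 0 to 4 in each other library. They were Vip, the neuropeptide that autonomic cholinergic neurons often release beside acetylcholine, with 52 counts, Chrna3 with 33, Snap25 with 19, Rtp1 with 19 and Cplx1, a presynaptic complexin, with 16. The library with 28 of the 29 Slc5a7 counts and all counts of Slc18a3 was thus also the only one with Vip at this depth. The size-selected sample of number 436 had 4 such genes, led by the steroid enzyme Hsd3b1 with 129 counts, and whole spleen of number 427 had Rpl7a-ps11, a ribosomal pseudogene, with 119.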
